A study of Mus musculus with 9 samples.

Results

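The 9 genes described here are used as markers of retinal astrocytes, though not all are confined to them: Gfap, Pax2, Pdgfra, Gja1, Gjb6, Aldoc, Agt, Igsf1 and S100b. They were taken by symbol, in a choice made with earlier results of these data known. They are 9 of 16367 genes in the table of sorted mouse retinal glia and 8 of 17035 genes in the table of cultured glia. Gjb6 was not analysed in the cultures. The sorted cells came from wild-type mice and make up 6 libraries. In the 3 sham libraries the eyes had received a corneal incision alone, and in the 3 ocular hypertension (OHT) libraries 1.2 µL of silicone oil had also been injected in each eye, which raises the pressure inside it. Both groups share the incision, the pooling of 4 retinas per library, the papain digestion, the removal of dead cells and the capture on anti-GLAST (ACSA-1) magnetic beads. The remaining 3 libraries are untreated primary Müller glia, grown in medium with fetal bovine serum from C57BL/6J pups of postnatal day 8 to 10 and passaged when confluent. No label gives the age of the operated mice or the time between injection and sorting.

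Retinal astrocytes enter the retina from the optic nerve head, spread over its inner surface ahead of the growing vessels, and in the adult wrap ganglion cell axons and blood vessels. Müller glia arise within the retina and span its whole depth. Both cell types carry GLAST, the glutamate transporter encoded by Slc1a3, so a GLAST sort can hold both. Gfap, the intermediate filament of astrocytes, is a textbook sign of glial reactivity, since Müller glia, which hold little of it at rest, make it when the retina is stressed. Pax2 and Pdgfra separate astrocytes from Müller glia more sharply. Pax2 is a transcription factor of the optic nerve head lineage, and Pdgfra is the receptor through which astrocytes respond to platelet-derived growth factor from neurons.

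Promoter windows of all 9 genes were found in RefSeq (build GRCm38.p6), each reaching from 250 bases before to 50 bases after an annotated start, so that base 250 is the last one before the start. Shown here are the windows of Gfap, of S100b and Pdgfra, whose levels moved most closely with Gfap across the sorted libraries, and of Gja1, whose levels did not. They lie on the minus strand at chr11:102897151-102897450 (Gfap) and on the plus strand at chr10:76253586-76253885 (S100b), chr5:75152001-75152300 (Pdgfra) and chr10:56377050-56377349 (Gja1). Each is written 5′ to 3′, with the matches to the searched motifs in capitals.
Gfap: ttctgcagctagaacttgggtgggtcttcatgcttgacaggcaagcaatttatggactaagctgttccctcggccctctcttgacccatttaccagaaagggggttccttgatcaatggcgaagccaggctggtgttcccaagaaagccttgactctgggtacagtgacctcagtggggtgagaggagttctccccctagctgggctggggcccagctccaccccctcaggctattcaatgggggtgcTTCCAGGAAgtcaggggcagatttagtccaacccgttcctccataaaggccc
S100b: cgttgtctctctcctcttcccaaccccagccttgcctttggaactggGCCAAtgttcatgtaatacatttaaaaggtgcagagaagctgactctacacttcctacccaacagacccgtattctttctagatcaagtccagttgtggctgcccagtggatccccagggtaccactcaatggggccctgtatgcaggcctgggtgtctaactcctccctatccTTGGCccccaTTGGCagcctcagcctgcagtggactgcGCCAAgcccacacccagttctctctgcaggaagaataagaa
Pdgfra: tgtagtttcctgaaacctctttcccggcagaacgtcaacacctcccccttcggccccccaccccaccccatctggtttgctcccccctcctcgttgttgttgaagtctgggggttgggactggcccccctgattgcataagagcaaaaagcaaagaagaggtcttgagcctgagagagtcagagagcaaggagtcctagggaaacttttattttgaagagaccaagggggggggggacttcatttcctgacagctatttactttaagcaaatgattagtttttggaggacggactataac
Gja1: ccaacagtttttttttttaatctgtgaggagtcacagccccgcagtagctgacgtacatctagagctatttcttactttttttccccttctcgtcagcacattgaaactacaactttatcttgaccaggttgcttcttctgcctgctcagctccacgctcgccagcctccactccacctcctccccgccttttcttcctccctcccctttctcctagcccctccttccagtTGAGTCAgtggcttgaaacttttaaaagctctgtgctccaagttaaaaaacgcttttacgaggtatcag
The search covered 4 sets of letters on both strands: TTCNNNGAA, read by STAT factors that act downstream of the cytokines driving astrocyte differentiation, TGANTCA (AP-1), TTGGC (bound by 1 subunit of nuclear factor I) and TATAAA (the TATA box). The capitals mark a STAT match across the start of Gfap (bases 249 to 257), 4 matches to the nuclear factor I letters in S100b (48 to 52, 222 to 226, 232 to 236 and 260 to 264) and an AP-1 match in Gja1 (232 to 238). The Pdgfra window held none of the 4 motifs. Of the 14 windows of the 9 genes, 4 held STAT letters, from 4 genes (Gfap, Pax2, Aldoc and Agt), against 8.30% of 32851 windows of all genes. The nuclear factor I letters were found in 6 of the 14 windows, from 5 genes, against 46.7% of all windows. The AP-1 and TATA letters were found in 1 window each (Gja1 and Agt), against 7.81% and 13.6%. These are matches of letters only, and genes with several windows had more chances of one.

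The deposited values are gene counts divided by 1 factor per library and are called normalised counts here. The underlying depth was 37.8 to 44.5 M (1e6) reads in the sham, 47.1 to 53.6 M in the OHT and 66.3 to 76.7 M in the culture libraries. Pairs of replicates differed by far more than sampling noise, with a chi-square per gene of 51.2 to 818. Over all genes the sham and OHT libraries hardly separated, with a mean correlation of 0.892 within sham, 0.885 within OHT and 0.875 between them; that of the cultures was 0.981. Beyond the pooling, nothing in the labels says which libraries came from separate animals, so p-values measure the spread between these libraries. Comparison of OHT with sham used limma on log2(value + 1). It tested the 14403 genes whose mean reached 10 or more, adjusting p-values by the Benjamini-Hochberg method over all of them. Of the 9 genes 7 passed this filter, while Gjb6 (mean 4.53) and Igsf1 (mean 5.26) did not.

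The sorted libraries did not carry these genes evenly. The replicates labelled sham 2 and sham 3 were the 2 highest libraries for 6 of the 9 genes (Gfap, Pax2, Pdgfra, Aldoc, Agt and S100b), whereas sham 1 was the lowest, ties included, for 6 of 9. Of all tested genes, 13.7% had sham 2 and sham 3 above the other 4 libraries. Summed over the 9 genes, sham 1, 2 and 3 held 425, 2688 and 2615 ppm (reads in 1e6 reads of the library), and OHT 1, 2 and 3 held 285, 324 and 614 ppm. Sham 1 thus lay inside the OHT range, and the other sham libraries stood well above all 3 OHT libraries. Aldoc alone made up 398, 1872 and 1236 ppm of the sums in sham and 221, 255 and 500 ppm in OHT.

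**Figure D1:**
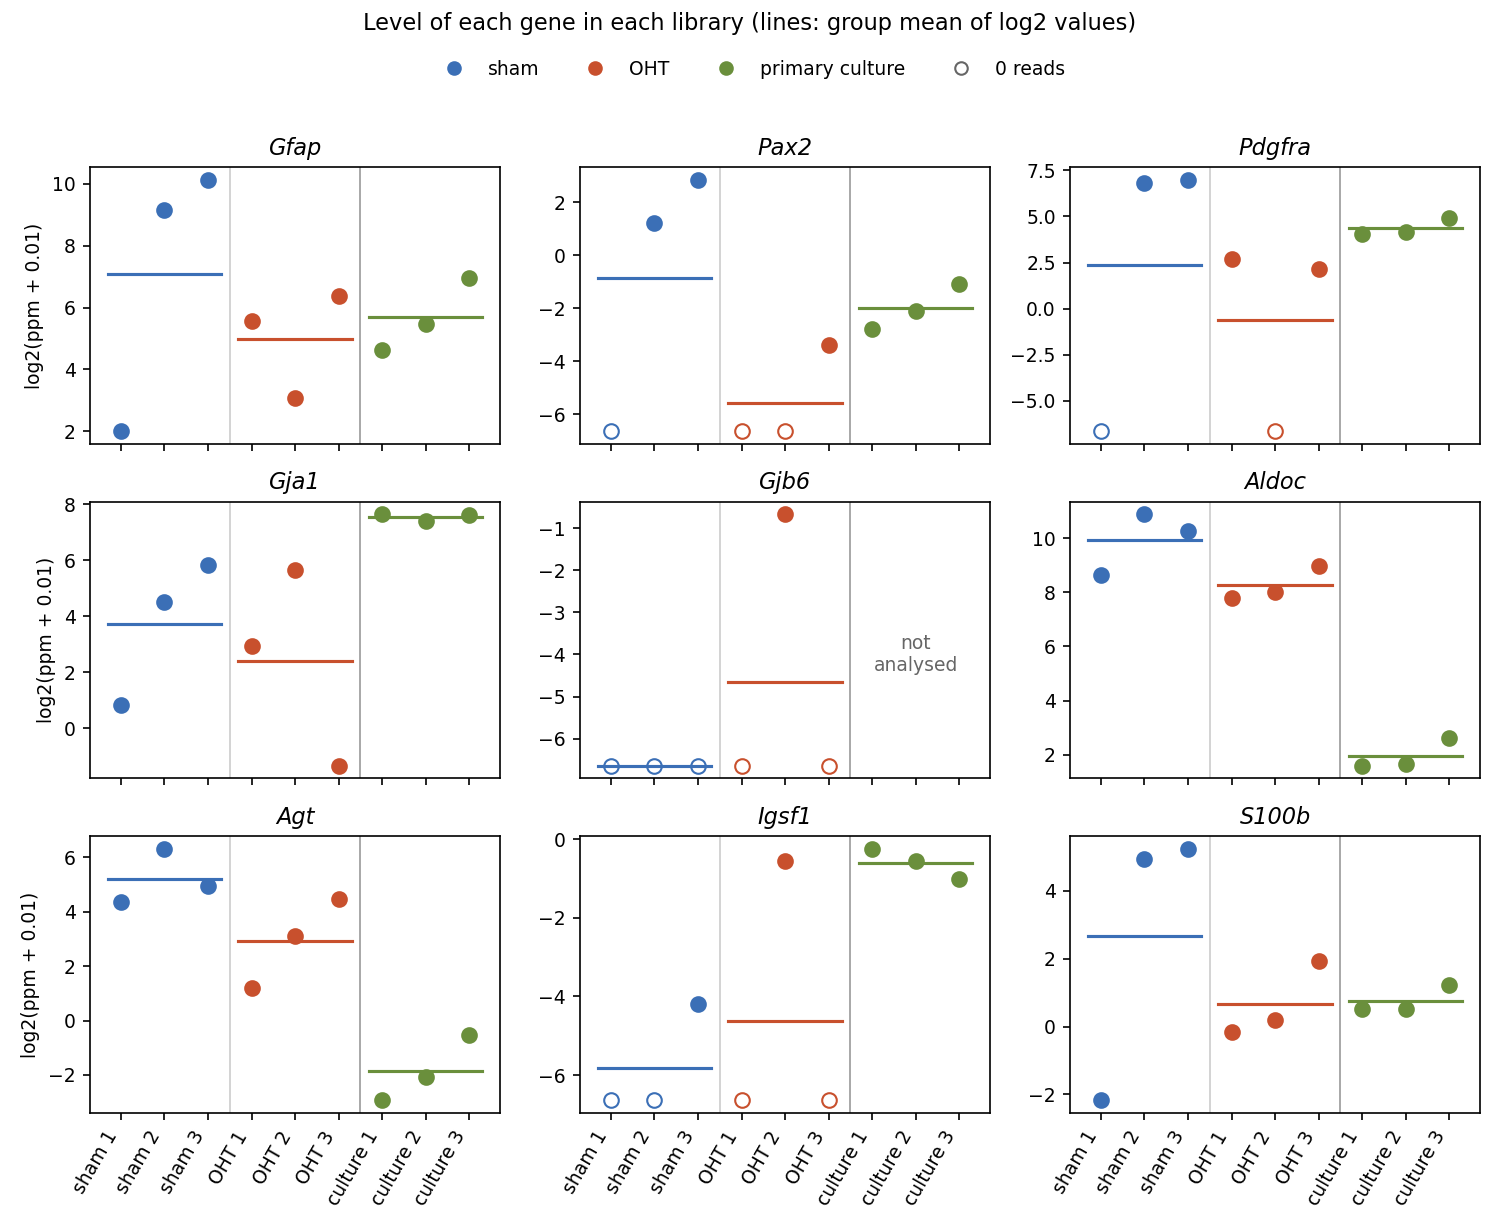
Level of each of the 9 genes in every library, on the vertical axis as log2(ppm + 0.01), with 1 point per library (open at 0 reads) and a line at each group's mean. Among the 6 sorted libraries sham 2 and sham 3 lead for 6 genes, sham 1 falls among or under the OHT points and only OHT 2 holds Gjb6.

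Gfap was measured at 156, 22395 and 47682 normalised counts in the sham libraries and at 3091, 370 and 3142 in the OHT libraries. The lowest library of all was therefore a sham library, below all 3 OHT libraries, while the 2 highest were also sham. Means were 23411 ± 23779 (SD, n = 3) in sham and 2201 ± 1586 in OHT, an SD as large as the mean in sham. The log2 difference of OHT from sham was -1.85 (SE 1.68, 95% interval -5.53 to 1.84, limma adjusted p = 0.653), which was not beyond the spread between libraries. The interval includes decreases and increases. Without sham 1 the difference was -4.41 and without sham 3 it was -0.29 (limma adjusted p = 0.129 and 0.963). It was -0.84 without sham 2 and -0.82 without OHT 2, so single libraries of either group set its size.

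Pax2 was detected chiefly in the same pair of sham libraries. It had 0, 89.5 and 303 normalised counts in sham 1, 2 and 3, from 0, 97 and 317 reads, and 0, 0 and 3.21 in OHT 1, 2 and 3, where the last stands for 4 reads. Against the limit that a count of 0 allows (3 reads per library), sham 2 was at least 28.7-fold and sham 3 at least 89.9-fold higher than sham 1, a difference inside 1 group. The log2 difference of OHT from sham was -4.23 (SE 2.17, 95% interval -8.99 to 0.54, limma adjusted p = 0.468); its size depends on the pseudocount, and it was -2.63 with 10 in place of 1. It was -6.68 without sham 1 and -2.56 without sham 3. DESeq2 on the recovered reads called Pax2 (adjusted p = 0.0391), and edgeR's quasi-likelihood test did not (adjusted p = 0.422).

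Pdgfra varied more than almost any other gene. Sham 1, 2 and 3 held 0, 4380 and 5361 normalised counts of this receptor, and OHT 1, 2 and 3 held 420, 0 and 170. A sham library and an OHT library thus had no read of a gene that reached 126 ppm elsewhere, a difference of at least 1588-fold between sham 3 and sham 1. The range over the 6 libraries was 12.39 on the log2 scale, and 0.00694% of the tested genes had a wider one. The log2 difference of OHT from sham was -2.78 (SE 3.02, 95% interval -9.40 to 3.83, limma adjusted p = 0.705), and single libraries set its size: it was -6.86 without sham 1, -0.82 without sham 2, -0.67 without sham 3, -4.45 without OHT 1 and -0.09 without OHT 2. Oligodendrocyte precursors, pericytes and fibroblasts can also carry Pdgfra. Sox10, of the oligodendrocyte lineage, had 11.1 normalised counts in OHT 1 and 0 in the other 5 libraries. The 10 pericyte and fibroblast genes, chiefly Rgs5 and Vtn, summed to 208 to 595 ppm in sham and 29.2 to 70.4 ppm in OHT. Among them Lum was above 0 in OHT 1 alone and Dcn was at 0 in sham 1, sham 2 and OHT 2. Col1a2, a fibrillar collagen, had 11.4, 177 and 167 normalised counts in sham and 19.3, 17.3 and 77.7 in OHT, highest in sham 2 and sham 3 as Pdgfra was. The part of these cells in the Pdgfra level was not tested. Olig1 and Olig2 were not analysed here.

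Of 12 signals that direct astrocyte growth and differentiation (growth factors such as Pdgfa, the cytokines Lif and Cntf, and their receptors), all 12 were tested and none passed the adjusted threshold. In OHT 6 were higher and 6 lower, where 54.8% of all tested genes were lower. Cntf passed the filter through its OHT libraries alone (0, 0.922 and 5.74 normalised counts in sham and 113, 4.94 and 10.4 in OHT), so these counts are a description. Their median log2 difference was 0.12, against -0.12 for all tested genes. The 3 most abundant were Il6st, the shared receptor subunit of the interleukin-6 family (-0.47), Lifr, its partner for LIF (-0.21), and Pdgfb, a ligand chiefly of the pericyte receptor (0.44). Pdgfa, the ligand of Pdgfra, had 635, 428 and 546 normalised counts in sham and 1335, 802 and 582 in OHT, with overlapping groups and a log2 difference of 0.69 (limma adjusted p = 0.578). Unlike its receptor, the ligand was present in all 6 sorted libraries.

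S100b, a calcium-binding protein of astrocytes, had 8.26, 1195 and 1594 normalised counts in sham 1, 2 and 3 and 58.0, 50.2 and 143 in OHT 1, 2 and 3. The order of libraries was the same as for Gfap, sham 1 lowest and sham 3 highest. The log2 difference of OHT from sham was -1.78 (SE 1.64, 95% interval -5.37 to 1.81, limma adjusted p = 0.658), and it was -4.19 without sham 1, -0.68 without sham 2 and -0.47 without sham 3. DESeq2 called it (adjusted p = 0.0466), and edgeR's quasi-likelihood test did not (adjusted p = 0.423). Pax2 and S100b were the 2 of the 7 tested genes that DESeq2 called, and it called 1.80% of all genes, 1.41% as lower in OHT. Pax2 entered the test through its sham libraries alone, so nothing is read from this count.

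The gap junction genes followed another order. Gja1 encodes connexin 43, the main connexin of astrocytes, and Gjb6 encodes connexin 30, which mature astrocytes add to it. Gja1 had 69.2, 901 and 2419 normalised counts in sham 1, 2 and 3 and 504, 2200 and 14.4 in OHT 1, 2 and 3, so that a sham and an OHT library were nearly tied at the top and OHT 3 was the lowest. Its log2 difference of OHT from sham was -1.05 (SE 1.64, 95% interval -4.65 to 2.55, limma adjusted p = 0.792). The difference was -2.52 without sham 1, -2.60 without OHT 2 and -0.68 without sham 2, and its sign turned without sham 3 (0.04) and without OHT 3 (0.98). Gjb6 had 27.2 normalised counts, from 33 reads, in OHT 2 and 0 in the other 5 sorted libraries. With a mean below the filter it has no test.

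Of 15 other connexins 4 were tested, and none passed the adjusted threshold. Gjd2, the neuronal connexin 36, had 0, 51.7 and 212 normalised counts in sham and 11.1, 35.4 and 3.21 in OHT (log2 difference -0.87). Gja4, a connexin of vessel walls, had 150, 21.2 and 98.6 in sham and 8.29, 0 and 0 in OHT, with a limma adjusted p of 0.332. Its groups did not overlap, as for 9.18% of all genes with OHT below sham, but it passed the filter through its sham libraries alone. Gja10, found in horizontal cells, had 246 in OHT 3 and at most 2.07 elsewhere. Gjc1, the other tested connexin, had 106, 53.5 and 46.9 in sham and 11.1, 4.94 and 20.8 in OHT, also without overlap. Gja4 and Gjc1 were thus highest in sham 1, Gjd2 in sham 3 and Gja10 in OHT 3.

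Aldoc, the brain form of the glycolytic enzyme aldolase, and Agt, the angiotensin precursor, varied least among the 7. Aldoc had 15566, 73657 and 52608 normalised counts in sham and 14514, 11246 and 18878 in OHT. Only sham 1 lay within the OHT range. The log2 difference of OHT from sham was -1.43 (SE 0.52, 95% interval -2.56 to -0.30, unadjusted p = 0.0177 and adjusted p = 0.363 in limma). It stayed negative, from -2.10 to -0.98, when each library was left out.

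Agt had 808, 3119 and 1305 normalised counts in sham 1, 2 and 3 and 152, 384 and 830 in OHT 1, 2 and 3. Again the groups overlapped only through sham 1, which fell just below OHT 3. Sham 1 held both Aldoc and Agt without a read of Pax2 or Pdgfra. Both were highest in sham 2, as were the Müller glia genes in sum (8170 ppm). The part of Müller glia in the Aldoc and Agt levels was not tested. The log2 difference of OHT from sham was -2.02 (SE 0.69, 95% interval -3.54 to -0.51, unadjusted p = 0.0134 and adjusted p = 0.343 in limma), and -2.62 to -1.39 with each library left out. Of 10 genes of the renin-angiotensin system 4 were tested, and none passed the adjusted threshold. Atp6ap2, the prorenin receptor, differed by 0.36, the peptidase Lnpep by -0.39 and Ace, the angiotensin-converting enzyme, by -3.50 (limma adjusted p = 0.468 for Ace). Agtr1a, an angiotensin receptor, was detected in sham 3 alone, at 34.4 normalised counts.

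Igsf1, an immunoglobulin superfamily membrane protein, had 29.6 normalised counts, from 36 reads, in OHT 2, 1.91 in sham 3 and 0 in the other 4 sorted libraries. Its highest library was thus the 1 that held Gjb6, and neither gene was tested.

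Over the 7 tested genes, 7 had a lower mean log2 value in OHT, where 54.8% of all tested genes did, and their median log2 difference was -1.85, against -0.12 for all genes. Pax2 passed the filter through its sham libraries alone, with an OHT mean of 1.07, so these counts are a description. None passed the adjusted threshold, and neither did any other gene (0.00% of 14403, smallest adjusted p 0.332). At an unadjusted p under 0.05, 2 of the 7 (Aldoc and Agt) were lower and none higher, against 6.30% and 5.37% of all genes. None of the 7 had groups without overlap, against 9.18% of all genes with OHT below sham and 9.26% with OHT above it (18.4% in either direction). Exact two-sided permutation tests gave p from 0.2 to 0.6, with 0.1 the smallest that 3 against 3 libraries allow. In bulk libraries, the number of astrocytes, the RNA of these genes per cell and the share of other cells cannot be told apart.

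**Figure D2:**
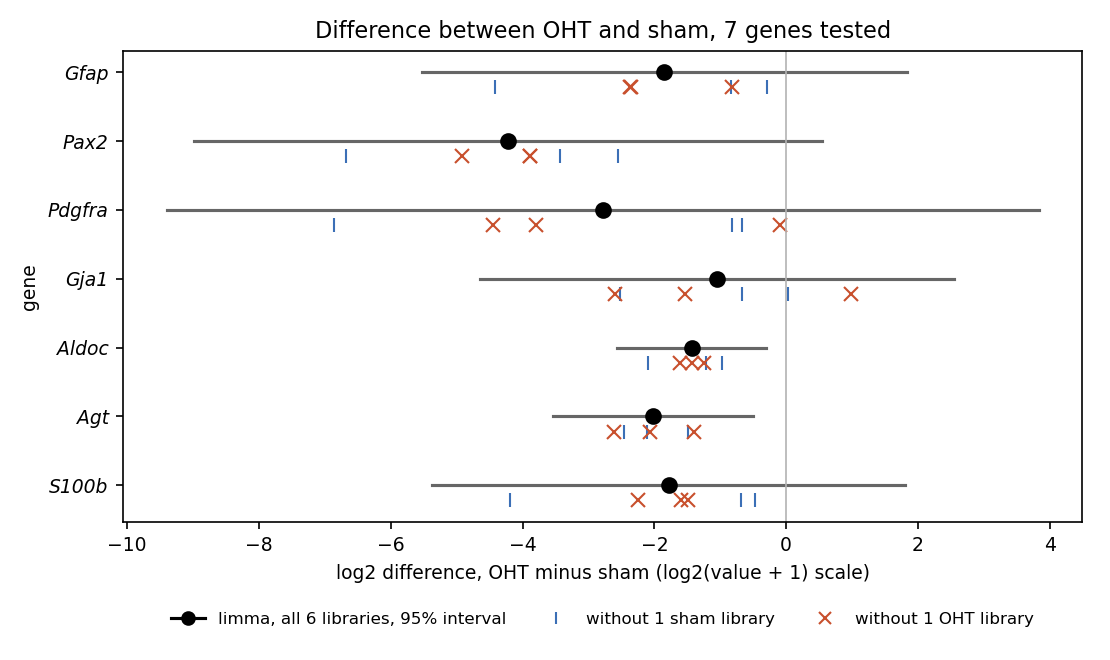
Log2 difference of OHT from sham on the horizontal axis for the 7 tested genes, as points with 95% intervals from limma and, under each, bars and crosses for the values without 1 sham or 1 OHT library. All 7 points lie below 0, and the intervals of Aldoc and Agt alone exclude 0 before adjustment.

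Per unit of length the order of the genes differed between sorted cells and cultures. In ppm per kb of the longest protein-coding transcript, the sham levels ran from Aldoc (420 ± 265, SD, n = 3) and Gfap (213 ± 211) through Agt (23.0), S100b (15.3), Pdgfra (11.6) and Gja1 (8.54) to Pax2 (0.719). Igsf1 stood at 0.00339, Gjb6 at 0, and each neighbouring pair overlapped. In OHT, Aldoc (117 ± 54.6) and Gfap (17.4 ± 14.1) were again the highest and did not overlap, followed by Gja1 (6.07), Agt (5.82), S100b (1.31), Pdgfra (0.531), Gjb6 (0.0975), Igsf1 (0.0506) and Pax2 (0.00649). Gja1 led in the cultures (59.0 ± 4.96), before Gfap (24.3 ± 19.9), Pdgfra (3.11 ± 1.08), Aldoc (1.47 ± 0.643), S100b (1.17 ± 0.359), Agt (0.183), Igsf1 (0.150) and Pax2 (0.0625). Neighbours overlapped there only for Aldoc with S100b and for Agt with Igsf1.

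The cultures held more connexin 43 and less aldolase RNA than the sorted cells, in levels set across separately normalised tables and without a test. Gja1 was at 199, 170 and 194 ppm in culture 1, 2 and 3, above its highest sorted library (56.8 ppm, sham 3). Aldoc was at 3.00, 3.12 and 6.16 ppm, below its lowest sorted library (221 ppm, OHT 1). Agt, at 0.121 to 0.691 ppm, also lay below all sorted libraries (2.31 to 79.3 ppm), whereas Igsf1, at 0.482 to 0.829 ppm, was detected in each culture.

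Gfap in the cultures had 24.5, 44.5 and 124 ppm, inside the sorted range of 3.99 to 1121 ppm. Pdgfra had 16.3, 17.6 and 29.7 ppm and Pax2 0.136, 0.225 and 0.456 ppm (9, 17 and 35 reads), so both astrocyte genes were detected in all 3 cultures. S100b had 1.43, 1.41 and 2.35 ppm. Culture 3 was the highest for 6 of the 8 genes. The 12 Müller glia genes summed to 243 to 404 ppm in the cultures, against 1757 to 8170 ppm in the sorted libraries. The list of pericyte and fibroblast genes, of which 9 were in the table of the cultures, summed to 16357 to 19308 ppm there, against 29.2 to 595 ppm for all 10 in the sorted libraries. Which cells these genes came from, and their part in the Pdgfra level, was not tested.

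Across the 6 sorted libraries, Pdgfra and S100b tracked Gfap most closely by Pearson's r among the other 8 genes. Pax2 followed, with 0 reads in 3 of the libraries and no adjusted p under the threshold. On log2(value + 1), Pearson's r with Gfap was 0.973 for Pdgfra and 0.958 for S100b (exact permutation p = 0.00556 and 0.00417, both 0.0222 after Benjamini-Hochberg adjustment over the 8 relations). The corresponding Spearman's rho was 0.928 (exact permutation p = 0.0222, adjusted 0.0593) for Pdgfra and 1 (exact permutation p = 0.00278, adjusted 0.0222) for S100b. For Pax2 r was 0.893 and rho 0.941 (exact permutation p = 0.025 and 0.0167, adjusted 0.0667 and 0.0593). Without sham 1 and sham 3, the 2 libraries farthest from the median of Gfap, r was 0.973 for Pdgfra, 0.875 for S100b and 0.855 for Pax2.

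The relation was not only a difference between the groups. With each group's mean removed, r with Gfap was 0.972 for Pdgfra, 0.953 for S100b, 0.943 for Pax2 and 0.935 for Aldoc. With 1 library left out, r lay between 0.960 and 0.986 for Pdgfra, 0.927 and 0.984 for S100b and 0.824 and 0.969 for Pax2. The calls of Pdgfra and S100b were lost on leaving out any library other than sham 1 (exact permutation adjusted p = 0.0583 to 0.133 over 5 libraries). With 5 libraries fewer permutations exist and the smallest p possible is larger, so these losses say little about the relation itself. Among the 11532 genes whose mean reached 100, Pdgfra had the highest r with Gfap, and 0.0260% had one as high as that of S100b. The share was 0.416% for Pax2, 0.928% for Aldoc, 10.8% for Agt and 16.8% for Gja1.

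Aldoc came next, and the remaining genes were less like Gfap. Aldoc had r = 0.850 and rho = 0.771 with Gfap (exact permutation p = 0.0514 and 0.103, adjusted 0.103 and 0.206), and 0.905 without sham 1 and sham 3. Agt had r = 0.481 and rho = 0.714 (exact permutation p = 0.358 and 0.136, adjusted 0.571 and 0.218), then 0.657 without those 2 libraries. Gja1 had r = 0.356 and rho = 0.429 (exact permutation p = 0.469 and 0.419, adjusted 0.571 and 0.559), then -0.19 without them. The r of Gjb6 (-0.453) and Igsf1 (-0.265) rests on OHT 2, and that of Igsf1 was 0.601 without it.

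**Figure D3:**
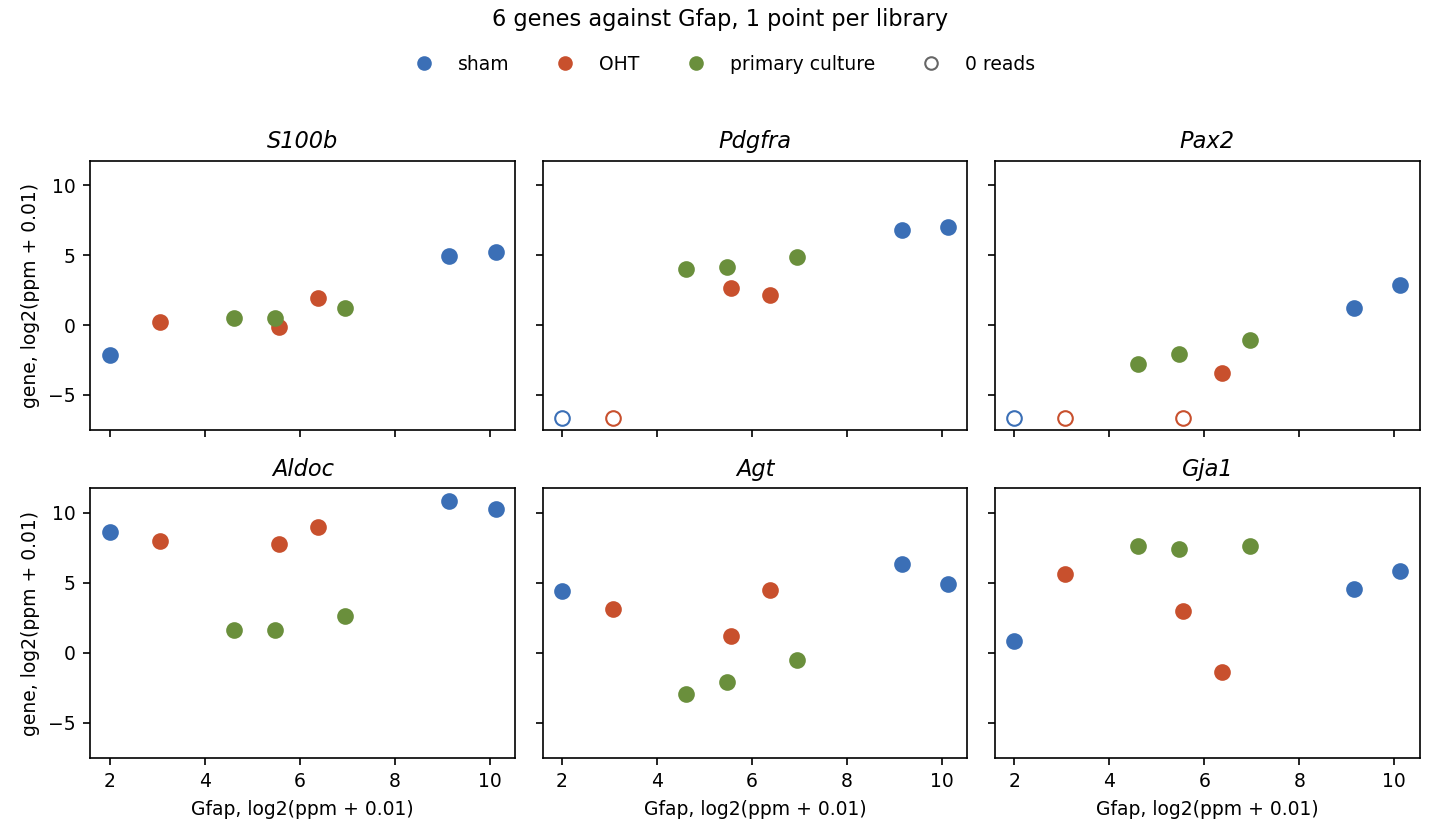
Each of 6 genes against Gfap over the 9 libraries, both axes as log2(ppm + 0.01), coloured by group and open where the gene had 0 reads. Pdgfra and S100b climb with Gfap through the 6 sorted libraries (r = 0.973 and 0.958 on log2(value + 1)), and Gja1 scatters (r = 0.356).

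Taken pair by pair, the 21 pairs of the 7 tested genes had r from 0.0170 to 0.973 with a median of 0.803, and all 21 were above 0. The 6 pairs among Gfap, Pax2, Pdgfra and S100b, a set picked after r was seen, lay between 0.803 and 0.973. Aldoc was within that range with each of them, at 0.850 with Gfap, 0.947 with Pax2, 0.808 with Pdgfra and 0.878 with S100b. Agt was nearer to Aldoc (0.828) than to Gfap. With Gjb6 and Igsf1 included, the 36 pairs had a median r of 0.418 and a range of -0.594 to 0.973, and 24 were above 0. The pair of Gjb6 and Igsf1 (0.951) is a match in OHT 2 alone. The points share the same 6 libraries, and these pairs are given as a description.

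**Figure D4:**
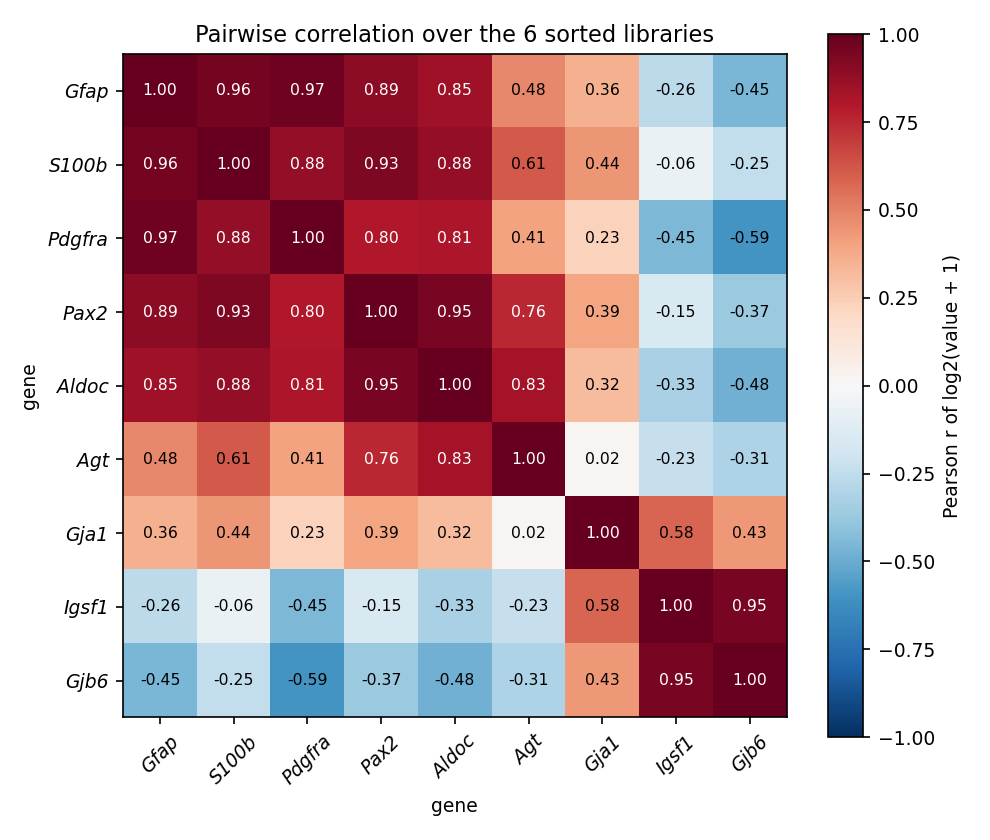
Pearson's r on log2(value + 1) over the 6 sorted libraries for every pair of the 9 genes, as coloured cells. Gfap, Pax2, Pdgfra, S100b and Aldoc form a block at 0.803 to 0.973, Gja1 has lower r with Gfap (0.356), and Gjb6 pairs with Igsf1.

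The proportion of each gene to Gfap varied less than the gene itself for some of them. Per 100 counts of Gfap there were 5.30, 5.33 and 3.34 counts of S100b in sham 1, 2 and 3 and 1.88, 13.6 and 4.57 in OHT 1, 2 and 3, a 7.24-fold range where S100b itself ranged 193-fold and Gfap 306-fold. Pdgfra, per 100 of Gfap, was at 19.6 and 11.2 in sham 2 and 3 and at 13.6 and 5.41 in OHT 1 and 3, and had no read in the 2 libraries with the least Gfap. Gja1 went the other way, with 4.02 and 5.07 in sham 2 and 3 but 595 in OHT 2 and 0.459 in OHT 3, a 1296-fold range. For Aldoc and Agt the ratio ranged 90.4-fold and 189-fold, wider than the genes themselves (6.55-fold and 20.5-fold).

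In the 3 cultures Gfap ranged 4.76-fold, too few libraries for a correlation. Agt per 100 of Gfap was 0.493, 0.505 and 0.557, a 1.13-fold range, though from low counts. For Pax2 the ratio ranged 1.51-fold, for Pdgfra 2.79-fold and for S100b 3.10-fold. Gja1, which ranged 1.23-fold itself, ranged 5.20-fold against Gfap.

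Marker genes of other cell types also differed across the same libraries. The 12 rod genes, which encode phototransduction proteins of another cell type, summed to 2836, 26799 and 21821 ppm in sham 1, 2 and 3 and 975, 1163 and 3601 ppm in OHT 1, 2 and 3, so that sham 2 and sham 3 again led. Of these 12, 11 were lower at an unadjusted p under 0.05, against 6.30% of all genes, and none passed the adjusted threshold. The log2 differences were -2.37 for Gnat1 (transducin) and -2.15 for Sag (arrestin). The median r of the 12 rod genes with Gfap was 0.834, against -0.04 for all genes. Of them 2 reached 0.9, where Pax2 had 0.893. The 12 microglia and macrophage genes ran opposite, at 52857, 35463 and 34109 ppm in sham and 62663, 52457 and 46537 ppm in OHT, with a median r of -0.403. The log2 differences of Ctss and C1qb were both 0.94, and 3 of the 12 were higher at an unadjusted p under 0.05, against 5.37% of all genes. Their part in the levels of the astrocyte genes was not tested.

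Müller glia genes had another order of libraries. The 12 genes of this list, led by Glul (glutamine synthetase), Rlbp1 (a retinoid carrier) and Dkk3, summed to 3423, 8170 and 3177 ppm in sham and 1766, 1757 and 3901 ppm in OHT. Sham 3, the highest library for Gfap, Pax2, Pdgfra and S100b, was therefore below OHT 3 in Müller glia genes. All 12 had a lower mean log2 value in OHT, where 54.8% of all tested genes did. None passed the adjusted threshold (median log2 difference -0.84). Oligodendrocyte genes did not separate the libraries, at 137, 175 and 115 ppm in sham and 68.2, 141 and 125 ppm in OHT, and Cnp, Mag and Mbp, the most abundant of them, differed by -0.24, 0.03 and 0.21 on the log2 scale.

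Vessel genes were measured in the same libraries. The 10 pericyte and fibroblast genes summed to 208, 572 and 595 ppm in sham 1, 2 and 3 and to 69.8, 29.2 and 70.4 ppm in OHT 1, 2 and 3. The 3 sham libraries were the highest. Most of the sum came from Rgs5 and Vtn, so it says little about the other genes of the list. None of the 8 tested passed the adjusted threshold, although 3 were lower at an unadjusted p under 0.05, against 6.30% of all genes. Col3a1 passed the filter through sham 1 (67.2, 0 and 0 normalised counts in sham and 16.6, 0 and 0 in OHT), so these counts are a description. Vtn (vitronectin) and Rgs5, both made by pericytes, differed by -2.95 and -3.27, and Acta2, smooth muscle actin, by -2.75. Vtn was highest in sham 2 and sham 3, as the rod genes were. Kcnj8 was highest in OHT 1, at 1007 normalised counts against 152, 71.0 and 221 in sham, although all 8 tested had a lower mean log2 value in OHT. Endothelial genes summed to 291, 510 and 239 ppm in sham and 111, 128 and 211 ppm in OHT. All 10 had a lower mean log2 value in OHT, where 54.8% of all tested genes did, and none passed the adjusted threshold. Kdr, Flt1 and Cldn5 differed by -0.79, -0.71 and -1.94. Ganglion cell genes were low in all 6 libraries, at 34.5 to 97.6 ppm in sum, and Nefl, Rbpms and Isl1 differed by -0.40, -0.99 and 0.61 (9 tested, none past the adjusted threshold). The part of these cells in the levels of the 9 genes was not tested.

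Of a further 30 astrocyte genes 26 were tested, with none past the adjusted threshold. In OHT 25 had a lower and 1 a higher mean log2 value, where 54.8% of all tested genes were lower. At an unadjusted p under 0.05, 12 were lower, against 6.30% of all genes. Their median log2 difference was -1.88, against -0.12 for all genes. Scrg1, Bcan and Fabp7 passed the filter through their sham libraries alone, so these counts are a description. In OHT 1, 2 and 3, Scrg1 and Bcan each had 2.76, 0 and 0 normalised counts, and Fabp7 had 8.29, 4.94 and 0. The 3 most abundant were Clu, which encodes clusterin (-0.89, SE 0.46), Atp1b2, a sodium pump subunit (-2.62, SE 0.54), and the membrane protein Mlc1 (-1.33, SE 0.53), with limma adjusted p of 0.468, 0.332 and 0.385. In sum they stood at 1862, 6637 and 4569 ppm in sham and 1091, 1346 and 2105 ppm in OHT, and their median r with Gfap was 0.549 over 22 genes, none of them at 0.9 or above. Müller glia also use many of this list, so it does not separate the 2 glial types.

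Of 14 genes known from reactive astrocytes, Gfap aside, 13 were tested, 7 had a lower and 6 a higher mean log2 value in OHT, and none passed the adjusted threshold. Their median log2 difference was -0.31, against -0.12 for all tested genes, of which 54.8% were lower. They summed to 512, 914 and 1190 ppm in sham and 447, 505 and 601 ppm in OHT, with sham 2 and sham 3 highest as for the 9 genes, and their median r with Gfap was 0.640 over 12 genes. Vim, the other intermediate filament of reactive glia, had 2221, 5011 and 6493 normalised counts in sham and 6976, 4501 and 3292 in OHT (log2 difference 0.17). Its 6 libraries lay far closer together than those of Gfap, and the highest was an OHT library. Cp, encoding ceruloplasmin, and Hspb1, a small heat shock protein, differed by -0.90 and -1.15.

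**Figure D5:**
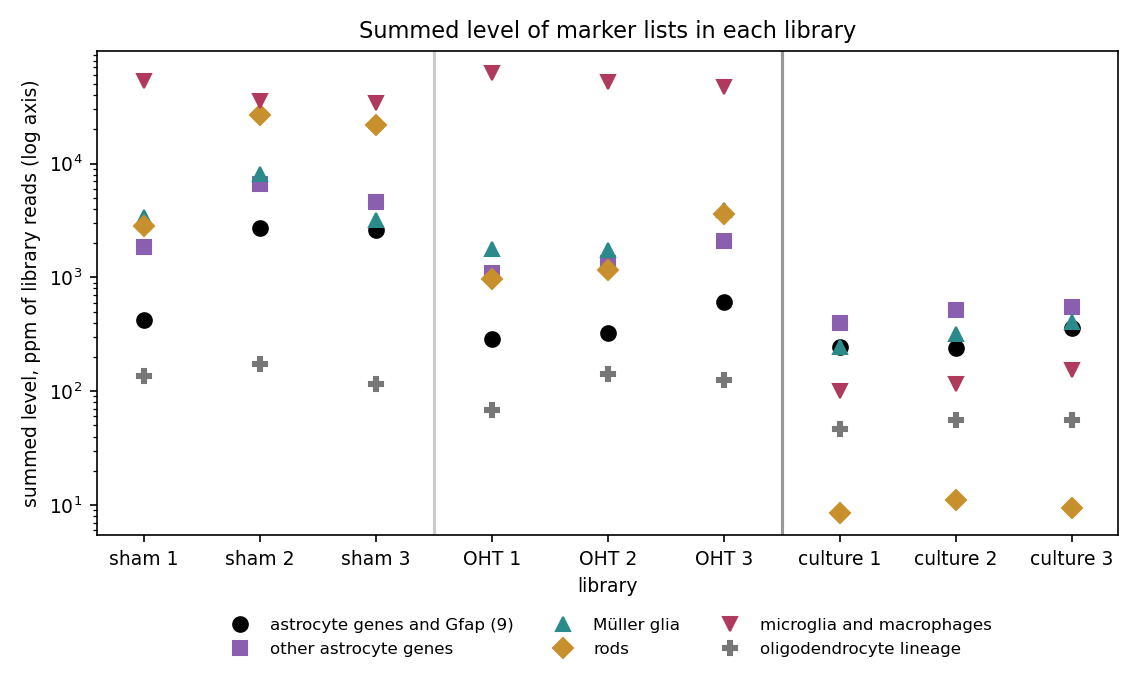
Summed level in ppm, on a log axis, of the 9 genes and of 5 marker lists, with 1 symbol per list and library (at OHT 3 the Müller glia symbol lies behind that of the rods). The 9 genes and the rod genes share their highest libraries, sham 2 and sham 3, and the microglia and macrophage genes are lower there than in the other 4 sorted libraries.

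Genes outside the lists that most resembled Gfap over the 6 sorted libraries, among those with a mean of at least 100, were Naa60, Tob2, Olfm2, Il15, Glmn, Pex5l, Pax8, Fam120c, Dph2 and Rab30, with r from 0.934 to 0.959. Besides Gfap itself, 42 of 11531 genes reached 0.9. Most of the 10 varied much less than Gfap: Naa60 had 1459, 1945 and 2118 normalised counts in sham and 1632, 1601 and 1711 in OHT. Pax8, a paralogue of Pax2, was the exception in range, with 0, 1008 and 737 in sham 1, 2 and 3 and 4.15, 0 and 104 in OHT 1, 2 and 3. The 10 genes nearest to the mean of all 9 were Ubap1l, Plekhg3, Naa60, Lhpp, Dph2, Kif1c, Ctxn1, Fam120c, Slc27a1 and Lbh (r 0.946 to 0.990). These names depend on the settings: with a mean of at least 10 the nearest 10 shared 0 with those named for Gfap and 4 with those named for the mean of the 9.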

How the data were processed

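The submitters' processing notes name bcl2fastq 2.20, Trim Galore 0.6.6, FastQC 0.11.9, STAR 2.7.1a and mm39; for counter, annotation and normalization, no tool is given in the sources used here. Per the labels, cDNA was amplified with a low-input kit and read in 150 bp pairs. The deposited signal is 1 value per gene and library, in 2 separately normalised tables. Dividing by each column's smallest step gave whole reads for 100% of values within 0.05 reads (in culture 3 the step, 1.01, is too close to 1 to check this); each step is a count divided by a library factor, not by length. The ppm scale takes these reads over the column total. The limit set for a count of 0 is 3 reads per library; it covers counting error alone, because PCR copies cannot be told from separate molecules here.

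Groups came from the labels. limma 3.58.1 (eBayes with trend, R 4.3.3) was fitted on log2(value + 1) for genes with a mean of at least 10, without covariates, at an adjusted threshold of 0.05, after a check on simulated data. edgeR 4.0.16 called 0 and DESeq2 1.42.0 called 250 genes on the recovered reads. Other alternatives were pseudocounts, filters, scalings, the variance model, a replicate block and leaving out libraries. Correlations used exact permutations (scipy 1.17.1). The replicate numbers were not taken to pair the sorted libraries. Transcript lengths are GENCODE M21; promoter windows are GRCm38.p6, a different build from mm39, and were tied to genes by symbol only. Named genes are the 9, the 3 of the highest mean in each list (none passed the threshold, and 2 of them are not reported here) and the 10 nearest by r to Gfap and to the mean of the 9; others named (Pdgfa, Agtr1a, Sox10, Lum, Dcn and Col1a2) were chosen after their values were seen. Members and lists were chosen with earlier results of these data known.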

Additional observations from a re-analysis of the deposited data

How the results depend on the processing

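Each of the 7 tested genes was lower in OHT under the settings run for it (Pax2 has none with a minimum mean of 100), except Gja1, whose log2 difference was 0.04 without sham 3 and 0.98 without OHT 3 (range over left-out libraries -2.60 to 0.98). The number of genes past the adjusted threshold was 0 in limma, with 1680 at an unadjusted p under 0.05. It was 0 in edgeR (1575 unadjusted), 250 in DESeq2 (54 higher and 196 lower, 2028 unadjusted) and 0 to 12 when a library was left out, with 12, all lower, without sham 1 and 7, all higher, without sham 3. Of the 7, 2 were past it in DESeq2, and 0 in the other settings. With the replicate block 2 genes passed, none of them among the 7. Deviations of same-numbered libraries correlated at 0.06, -0.05 and -0.06 over 11532 genes, and those of other pairs at -0.09 to 0.15. These values show no pairing by number, but cannot settle whether same-numbered libraries were handled together. The r of Gfap with Gja1 became -0.19 without the 2 libraries farthest in Gfap, and that with Igsf1 became 0.0676 by Spearman's rho and ranged from -0.590 to 0.601 when each library was left out. The cause was not tested. Of the other values of r with Gfap, 75 kept their direction and side of the threshold, 13 lost a call (all of Pdgfra or S100b) and 4 gained one (Pax2 or Aldoc). Apart from Pdgfra by Spearman's rho, calls were lost only with libraries left out, where fewer permutations raise the smallest p possible. Quantile normalization moved the median log2 difference of all genes from -0.12 to 0.01, and the 7 genes were lower there too. Depth limits Gjb6, Igsf1 and Pax2, which rest on at most 33, 36 and 317 reads in a sorted library.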

Other observations

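Gja1 had its own nearest genes over the 6 sorted libraries, a search added after seeing the data. The highest r among genes with a mean of at least 100 were those of Hpcal1 (0.995), App, which encodes the amyloid precursor protein (0.992), Pex14 (0.985), Vmac (0.985) and Ppt2 (0.983). App had 6517, 8579 and 10405 normalised counts in sham 1, 2 and 3 and 7848, 9798 and 4892 in OHT 1, 2 and 3. Its libraries stand in the order of Gja1, highest in sham 3 and OHT 2 and lowest in OHT 3, over a far narrower range.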
